A study of Mus musculus with 3 samples.

Results

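The genes described here are the keratins and claudins, the structural genes by which mammary epithelium is most often read. All rows of the deposited gene table whose symbol is Krt followed by a number, with at most 1 trailing letter, or Cldn followed by a number were taken: 51 keratins and 23 claudins, 74 of 28692 genes. Their UMIs (molecular tags that count a captured transcript once, irrespective of its length) were summed per library over a set of epithelial barcodes and over 6 leukocyte classes. The libraries were 3 replicates of 1 group. Cells of the 2208L mouse mammary tumour line had been put into the mammary gland of mice, the tumours were taken after 4 weeks at 0.7 to 1 cm across, and viable DAPI-negative cells positive for CD45, the surface marker of leukocytes, were sorted. The labels give the cell type as tumour although the sort was for leukocytes, and they name a 5′ platform as well as a 3′ protocol, which was not settled. The labels do not state host strain, age, sex, any treatment, or whether each library is another animal. The p-values therefore rest only on how class differences vary over these 3 libraries, pooled over the classes. They cannot be taken to measure a spread between animals.

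Keratins form the intermediate filaments of epithelial cells as obligate pairs of a type I and a type II chain. In the mammary gland, Krt8 and Krt18 are the pair of the luminal layer, with Krt7 and Krt19 beside them, and Krt5 and Krt14 are the pair of the basal, myoepithelial layer. Claudins are the membrane proteins of tight junctions: Cldn3, Cldn4 and Cldn7 are the set whose loss names the claudin-low class of mammary tumours, Cldn1 and Cldn8 tighten the barrier, and Cldn2, Cldn10 and Cldn15 form channels for ions. All 74 genes were found in the GENCODE mouse annotation (GRCm38), where 27 keratins lie on chromosome 11 and 24 on chromosome 15, while the claudins are spread over many chromosomes. Krt8 (ENSMUSG00000049382, chr15:101996698-102004482) and Krt18 (ENSMUSG00000023043, chr15:102028180-102032027) are transcribed away from each other, with their starts 23.7 kb apart.

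The stretches just upstream of 4 gene starts are shown because the results turn on these genes: Krt8 and Krt18 set the epithelial barcodes, Cldn3 was the most abundant claudin there, and Cldn1 was found mainly in leukocytes. They are printed 5′ to 3′ on the strand of the gene, from RefSeq promoter windows on GRCm38.p6 trimmed at the annotated gene, and 54 of the 74 members had such a window. Capitals mark CACCTG, an E-box of the kind read by Snail and Zeb repressors, and GGGCGG, a GC box, each searched on both strands, so CCGCCC is the GC box of the other strand. The coordinates are chr15:102004483-102004592 (minus strand) for Krt8, chr15:102027966-102028179 (plus) for Krt18, chr5:134985964-134986213 (plus) for Cldn3 and chr16:26371842-26372089 (minus) for Cldn1.
Krt8: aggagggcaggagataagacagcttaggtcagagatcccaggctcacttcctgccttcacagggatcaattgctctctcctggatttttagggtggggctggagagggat
Krt18: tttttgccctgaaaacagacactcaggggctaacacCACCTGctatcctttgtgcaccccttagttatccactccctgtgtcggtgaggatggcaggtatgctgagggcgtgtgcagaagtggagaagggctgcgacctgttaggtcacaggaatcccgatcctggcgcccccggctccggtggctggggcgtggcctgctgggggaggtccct
Cldn3: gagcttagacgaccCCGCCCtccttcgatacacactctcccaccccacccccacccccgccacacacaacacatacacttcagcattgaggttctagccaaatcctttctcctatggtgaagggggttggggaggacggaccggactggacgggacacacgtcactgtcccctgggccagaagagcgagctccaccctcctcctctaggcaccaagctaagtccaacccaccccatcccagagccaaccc
Cldn1: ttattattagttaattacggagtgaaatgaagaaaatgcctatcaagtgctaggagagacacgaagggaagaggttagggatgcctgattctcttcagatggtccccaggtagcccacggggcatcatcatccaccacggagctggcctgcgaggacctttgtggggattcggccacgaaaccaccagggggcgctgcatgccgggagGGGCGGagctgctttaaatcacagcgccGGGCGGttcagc
Krt18 held 1 CACCTG, and 15.2% of 32851 RefSeq windows of that length held at least 1. Cldn3 held 1 GGGCGG, and 32.7% of windows of its length held at least 1. Cldn1 held 2, and 32.5% of windows of its length held at least 1. The share of windows with 2 or more was not counted. The Krt8 stretch held neither. These are matches of letters, not measured binding sites.

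Epithelial barcodes were those with at least 1 Epcam UMI, at least 5 UMIs of Epcam, Krt8 and Krt18 together, and 0 of the T-cell gene Cd3e. Of 14226 barcodes kept, 222 met this rule: 77 in replicate 1, 77 in replicate 2 and 68 in replicate 3. They did not form 1 population. In 177 of them (60, 58 and 59) at least 1 Krt8 or Krt18 UMI was present, and all 177 lay in the epithelial-like cluster. The members, Epcam and Cd3e were kept out of the clustering, but Epcam, Krt8 and Krt18 were among the markers that name the cluster, so its name is no independent check. The other 45 (17, 19 and 9) entered through Epcam alone, with 5 to 14 Epcam UMIs and 0 of Krt8 and Krt18. Of these, 44 lay in a dendritic-cell-like cluster led by Cd209a, Plet1, Ppp1r1a and Mgl2, and 1 lay in a macrophage-like cluster. Ptprc, which encodes CD45, was detected in 82.2% of the 45 and in 13.6% of the 177, at medians of 6042 and 11768 UMIs per barcode. The 45 keratin-free barcodes carried 11.2% of the UMIs of the 222. Results are therefore given for the whole gated set and, where it matters, for the 177 keratin-bearing barcodes, a division made after the values had been seen. Just inside the threshold, 27 gated barcodes had a sum of 5, and just outside it 41 barcodes had a sum of 4, of which 7 lay in the epithelial-like cluster.

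**Figure D1:**
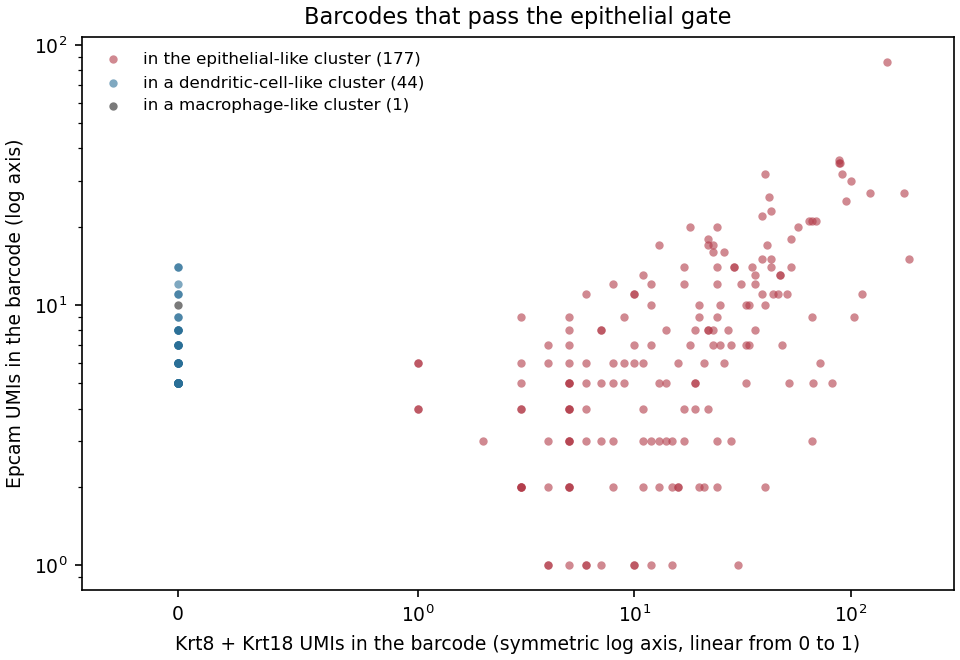
Each point is 1 of the 222 gated barcodes, with its summed Krt8 and Krt18 UMIs on the x axis (symmetric log, linear from 0 to 1) and its Epcam UMIs on the y axis (log), coloured by the cluster it lay in. The 45 barcodes at 0 on the x axis lay in a dendritic-cell-like (44) or macrophage-like (1) cluster, and the 177 others in the epithelial-like cluster.

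The 177 keratin-bearing barcodes carried other epithelial genes as well. Wfdc18, the leading gene of the epithelial-like cluster, was present in 100% of them. Leukocyte classes held it too, so its presence alone says little. Its mean was 18901 CPM in the gated barcodes. It was 142 in neutrophil-like, 82.1 in monocyte/macrophage-like and 31.4 in T-cell-like barcodes. The 7 fibroblast markers were low, at a sum of 0 to 3.95 CPM (a count scaled to the UMI total of its class in that library). Col1a2, Col3a1, Dcn and Lum were at 0. The 7 endothelial markers summed to 60.5 to 86.0 CPM. This was above neutrophil-like (14.0 to 15.8), monocyte/macrophage-like (18.1 to 29.2), T-cell-like (19.9 to 31.5) and dendritic-cell-like barcodes (39.1 to 44.7). It was below NK-cell-like (89.2 to 92.1) and plasmacytoid-dendritic-cell-like ones (208 to 272). The 11 neutrophil markers summed to 512 to 868 CPM in the 177, against 64468 to 73662 in neutrophil-like barcodes. The 10 macrophage markers summed to 147 to 1348 in the 177, against 26607 to 33931 in monocyte/macrophage-like barcodes. Their part in the results was not tested. Whether an epithelial barcode came from the injected tumour or from the host gland cannot be told apart with these genes.

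The members at work were few. In all kept barcodes 42 members (34 keratins and 8 claudins) had 0 UMIs. In the gated barcodes 54 members had 0, 4 had 1 to 9 (Krt27 8, Cldn2 9, Cldn23 6 and Cldn15 1), and 16 had at least 10. A further 11 members had UMIs only outside the gate besides Krt86: Cldn5 9, Krt80 5, Krt222 4, Krt19 3, Krt28 2, and 1 each of Cldn6, Cldn9, Cldn11, Cldn14, Krt1 and Krt76. The 16, and Krt86 with 14 UMIs in neutrophil-like barcodes, are the members described below. Counts of the keratin families can be split between near-identical copies, and Krt8 has an annotated processed pseudogene, so the assignment of reads within these families is uncertain.

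The luminal keratins dominated. Krt18, the type I chain of the luminal pair, stood at 1095, 1217 and 1393 CPM in the gated barcodes of replicates 1, 2 and 3. Krt8, its type II partner, stood at 513, 512 and 760 CPM. Krt18 lay above Krt8 in each library, and the ranges did not overlap. Because these 2 genes chose the barcodes, their levels are a description. Krt7, the other luminal type II keratin, which the gate did not use, stood at 337, 432 and 669 CPM (479 ± 171, SD, n = 3). Its range overlapped that of Krt8, and replicate 3 was the highest library for all 3 genes. In the 177 keratin-bearing barcodes the means were 1389 ± 139 for Krt18, 667 ± 135 for Krt8 and 536 ± 173 for Krt7, and Krt7 UMIs were present in 80.8% ± 2.37 of barcodes. A single barcode with 133 Krt7 UMIs supplied 10.6% of that gene's UMIs. Krt19, a luminal keratin in many glands, and Krt20 had 0 UMIs in the gated barcodes, which allows up to 1.15 CPM over the 222 (3 counts, for counting error only, as for all intervals below).

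Basal keratins were close to absent. Krt5, the type II chain of the basal pair, had 0 UMIs. Krt14, its type I partner, had 19 UMIs in 8 barcodes, of which 7 were in a single barcode, and stood at 13.1, 4.49 and 4.54 CPM. Krt15, a keratin of basal stem-like cells in stratified epithelia, had 49 UMIs in 27 barcodes and stood at 9.52, 25.8 and 20.4 CPM. Krt17, induced in basal and wounded epithelium, had 11 UMIs, 10 of them in replicate 3, and stood at 0, 1.12 and 11.3 CPM. Summed, the 4 basal keratins reached 22.6, 31.4 and 36.3 CPM, below Krt7 alone, the luminal keratin that the gate did not use, in each library. The 5 luminal keratins summed to 1944, 2161 and 2822 CPM, mostly from the 2 that chose the barcodes. The stress keratins Krt6a, Krt6b and Krt16 had 0 UMIs. Once each gated barcode was thinned at random to 2000 UMIs, which left out 7 shallower ones, Krt5 or Krt14 was detected in 1 of 215 barcodes, and the planned test of barcodes with against those without them was not run.

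Of the keratins of differentiating layers, 3 of the 14 in the files were detected. Krt10, a keratin of suprabasal skin layers, stood at 36.9, 35.9 and 53.3 CPM. Krt23, a type I keratin of glandular epithelia, stood at 22.6, 12.3 and 18.1 CPM. Krt79, known from hair follicle and gland ducts, had 16 UMIs in 14 barcodes and stood at 3.57, 5.61 and 9.07 CPM. Of 23 hair and root-sheath keratins, Krt27 was the only one with UMIs in the gated barcodes.

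Cldn3 and Cldn7 were the main claudins. Cldn3, a sealing claudin, stood at 416, 367 and 429 CPM in the gated barcodes. Cldn7, which also sits along the lateral membrane, stood at 312, 357 and 336 CPM. Cldn4, a sealing claudin next to Cldn3 on chromosome 5 with its start 39.3 kb away, stood at 89.2, 46.0 and 61.3 CPM. The 3 ranges did not overlap, so the order Cldn3, Cldn7, Cldn4 held in all libraries. Cldn4 in turn overlapped Krt10. The sum of these claudins was 817, 770 and 826 CPM. In the keratin-bearing barcodes all claudins together took 0.0951%, 0.0944% and 0.0936% of UMIs, while keratins took 0.230%, 0.263% and 0.318%, so the libraries were spread more in keratins than in claudins, a difference given as values without a test. At the level of single barcodes, 125 of the 215 thinned barcodes held at least 1 UMI of Cldn3, Cldn4 or Cldn7, and 93 of those also held Krt18. All 125 were among the 170 thinned barcodes that were keratin-bearing.

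The remaining claudins were thin. Cldn10, a channel claudin, had 33 UMIs, of which 15 were in a single barcode, and stood at 2.38, 25.8 and 9.07 CPM. Cldn12 had 26 UMIs at 10.7, 3.37 and 15.9 CPM, and Cldn8 had 12 UMIs at 4.76, 3.37 and 5.67 CPM. Cldn1 had 24 UMIs in the gated barcodes, of which 23 lay in the 45 keratin-free barcodes and 1 in the 177 keratin-bearing ones. Cldn1 thus belonged, in these counts, to the Epcam-positive barcodes of the dendritic-cell-like cluster and not to those with keratins.

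**Figure D2:**
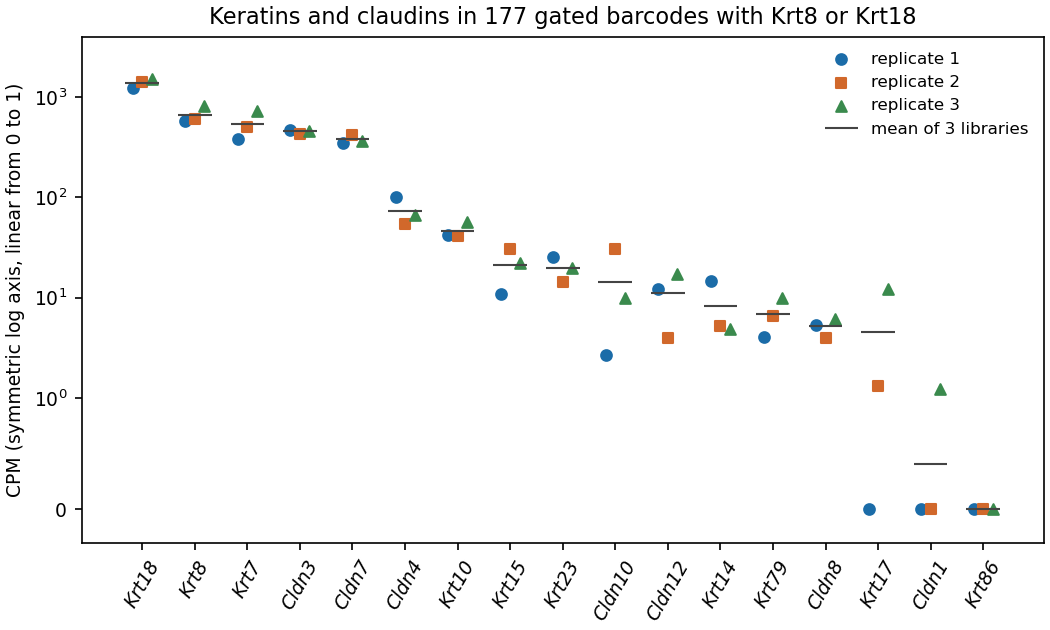
Level of the 17 described members in the 177 keratin-bearing barcodes, in CPM on a symmetric log axis (linear from 0 to 1), with 1 point per library and a line at the mean of 3 libraries. Krt18, Krt8, Krt7, Cldn3 and Cldn7 sit above the other 12 members, Cldn1 at 0 in 2 libraries and Krt86 at 0 in 3.

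The gated barcodes were compared with the 3 largest leukocyte classes by edgeR's quasi-likelihood test on UMI sums with library as a block, the Benjamini-Hochberg adjustment over all genes and a threshold of 0.05. Krt8 and Krt18 set the barcodes and are left out of these counts, and most of the 74 members were too low for the filter: 7 were tested. Against neutrophil-like barcodes 6 of 7 members were higher and 0 lower, where 43.7% of all 9161 genes tested were higher, 27.1% lower and 70.8% called either way. Against monocyte/macrophage-like barcodes 7 of 7 were higher and 0 lower, beside 31.2% of all genes higher, 28.7% lower and 59.9% either way. Against T-cell-like barcodes 7 of 7 were higher and 0 lower, beside 33.9% higher, 23.7% lower and 57.5% either way. Members that passed the filter only through the epithelial barcodes had to differ, so these counts describe and do not rank the families. The scaling matters for the background: with TMM in place of library totals, the median log2 difference of all genes against neutrophil-like barcodes moved from 0.38 to 0.04, and the genes higher and lower from 4007 and 2480 to 3306 and 3150. Against T-cell-like barcodes the median moved from 0.16 to 0.00, and the genes higher and lower from 3105 and 2167 to 2673 and 2573.

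The differences were large for the epithelial claudins and Krt7. Krt7, Cldn3, Cldn4, Cldn7 and Krt23 were too low in the leukocyte classes to pass the filter through them. A call was thus bound to follow, and the adjusted p-values of these members are no added evidence. Krt7 stood at 5.15, 5.29 and 4.04 CPM in neutrophil-like barcodes, and was higher in the gated ones by 6.68 ± 0.21 (log2, standard error; edgeR adjusted p = 2.16e-19). Against monocyte/macrophage-like barcodes the difference was 7.79 ± 0.20 (edgeR adjusted p = 1.03e-20) and against T-cell-like barcodes 8.42 ± 0.26 (edgeR adjusted p = 3.30e-19). Cldn3 was higher than in neutrophil-like barcodes by 7.69 ± 0.22 (edgeR adjusted p = 3.93e-21) and than in monocyte/macrophage-like barcodes by 8.90 ± 0.21 (edgeR adjusted p = 1.05e-22). Cldn7 was higher by 7.20 ± 0.25, 7.60 ± 0.23 and 7.61 ± 0.27 against the neutrophil-like, monocyte/macrophage-like and T-cell-like barcodes. In each of these contrasts the gated barcodes were higher in 3 of 3 libraries and the groups did not overlap. Where a leukocyte class held 3 UMIs or fewer, the ratio of pooled CPM with its 95% counting interval is given instead. For Cldn4 it was 207 (56.3 to 1720) against 2 UMIs in neutrophil-like barcodes and 476 (130 to 3960) against 2 in monocyte/macrophage-like ones, and both differences were called (edgeR adjusted p = 7.85e-13 and 3.45e-14). For Cldn3 against 3 UMIs in T-cell-like barcodes it was 741 (253 to 3597). Krt23 had 0 UMIs in neutrophil-like and T-cell-like barcodes, so that it was at least 37.3-fold and at least 32.3-fold higher in the gated ones (floor of 3 counts over the class). Its call was lost with DESeq2 (adjusted p of 0.108, 0.157 and 0.133 in the 3 contrasts).

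Krt10 and Cldn1 behaved otherwise. Krt10 was higher in the gated barcodes by 4.10 ± 0.40 against neutrophil-like, 2.87 ± 0.30 against monocyte/macrophage-like and 1.85 ± 0.31 against T-cell-like barcodes (edgeR adjusted p = 2.77e-10, 1.96e-09 and 7.93e-06), since leukocytes carried it too. Cldn1 was not called against neutrophil-like barcodes (-0.63 ± 0.37, edgeR adjusted p = 0.126), although it lay lower in 3 of 3 libraries. It was called higher against monocyte/macrophage-like barcodes (3.60 ± 0.54, edgeR adjusted p = 1.22e-06) and T-cell-like ones, where its ratio to 1 UMI was 50.5 (8.24 to 2079). Those calls rested on the keratin-free barcodes. In the 177 keratin-bearing barcodes alone, the Cldn1 difference was -0.58 against monocyte/macrophage-like (edgeR adjusted p = 0.723, over all alternatives 2.60e-11 to 0.723) and 0.95 against T-cell-like barcodes (edgeR adjusted p = 0.654, over all alternatives 3.46e-10 to 0.654), and against neutrophil-like barcodes Cldn1 was then called lower.

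Genes that work with keratins and claudins were read from lists chosen with earlier results of these data known. Leukocyte classes came from clusters built on genes that can include these lists, so the counts are descriptions. Some list genes, such as Marveld3 and Tfap2a with 0 CPM in neutrophil-like and T-cell-like barcodes, could not pass the filter through those classes. Their differences were largely set in advance. Over all genes 43.7%, 31.2% and 33.9% were higher against neutrophil-like, monocyte/macrophage-like and T-cell-like barcodes. All 11 tested genes of tight and adherens junctions were higher in the gated barcodes against each of the 3 classes, with a median log2 difference of 6.31 against neutrophil-like barcodes beside 0.38 for all genes. Among them, F11r, a junctional adhesion molecule, stood at 117, 125 and 125 CPM, Ctnna1, the cadherin linker alpha-catenin, at 104, 95.4 and 125 CPM, and Cdh1, E-cadherin, at 64.2, 87.6 and 72.6 CPM. Ctnnd1, p120-catenin, stood at 67.8, 49.4 and 77.1 CPM. Cdh1 stood at 55.4 ± 7.83 CPM in the keratin-bearing barcodes and at 74.8 ± 11.8 in all gated ones. Of the desmosome and keratin-linker genes, 7 of 7 were higher against neutrophil-like and against monocyte/macrophage-like barcodes (medians 4.48 and 3.94), and 6 were higher and 1, Pkp3, lower against T-cell-like barcodes. Jup, plakoglobin, stood at 115, 116 and 140 CPM, Plec, plectin, at 70.2, 38.2 and 69.2, Dsp, desmoplakin, at 54.7, 46.0 and 60.1, and Perp at 47.6, 44.9 and 57.9 CPM. Of the epithelial regulators, 7 of 7 were higher in all 3 contrasts (medians 6.89, 6.59 and 8.29), led by Tfap2c at 182, 111 and 138 CPM. The next were Elf3 and Ehf, 2 epithelial ETS factors, at 38.7 ± 7.68 and 35.1 ± 5.82 CPM, and Esrp1, an epithelial splicing factor, at 28.6 ± 6.89 CPM.

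Luminal genes outside the keratins ranged from abundant to scarce. Among the lower ones, Elf5, Kit, Areg, Ltf and Gata3 had means of 38.8, 29.5, 19.4, 6.9 and 3.45 CPM in the gated barcodes. Wfdc18 stood at 18958, 18216 and 19530 CPM, above every keratin and claudin, and Trf, transferrin, at 3428, 3263 and 3815 CPM. Csn3, kappa-casein, was highest in replicate 1 at 338 CPM, with 141 and 154 in the others. Cd24a, a surface marker of luminal cells that neutrophils also carry, stood at 561 ± 35.8 CPM. Of 12 luminal genes tested, 8 were higher and 2, Cd24a and Ltf, lower against neutrophil-like barcodes (median 5.44), 11 were higher and 0 lower against monocyte/macrophage-like (4.51), and 10 higher and 1, Gata3, lower against T-cell-like (5.08). Hormone receptor genes were scarce, with 2 Esr1 UMIs and 0 of Pgr. Of 9 basal genes tested, 5, 6 and 7 were higher in the same order and 3, 2 and 0 lower, and the genes called higher in all 3 contrasts included Igfbp5, Dst and the integrin genes Itga6 and Itgb4. Igfbp5, a growth-factor binding protein, stood at 620, 824 and 889 CPM, Itga6 at 104, 73.0 and 123, and Itgb4 at 41.6, 46.0 and 83.9 CPM. The contractile myoepithelial genes Acta2, Myh11, Cnn1 and Tagln had 0 UMIs in the gated barcodes, and Trp63, the basal transcription factor, had 2. Of 7 mesenchymal genes tested, 4 were higher and 2 lower against neutrophil-like, 3 and 3 against monocyte/macrophage-like, and 4 and 2 against T-cell-like barcodes. Over all genes the shares higher and lower were 43.7% and 27.1%, 31.2% and 28.7%, and 33.9% and 23.7% in these contrasts, and several of the basal and mesenchymal counts lie near them, so nothing is read from these counts. Fn1, fibronectin, stood at 280, 259 and 337 CPM, Vim, vimentin, at 243, 228 and 172, Twist1 at 53.5, 41.5 and 47.6, and Sparc at 30.9, 30.3 and 34.0 CPM, while Snai2 had 0 UMIs. In the keratin-bearing barcodes Vim was 140 ± 25.2 CPM and Twist1 53.5 ± 6.14.

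The second use of these genes is to read how much epithelial RNA the leukocyte barcodes held. For 8 members with at least 10 gated UMIs in each library, the CPM of a leukocyte class was divided by that of the gated barcodes of the same library. The median over the 8 was 0.901% in neutrophil-like, 0.571% in monocyte/macrophage-like and 0.288% in T-cell-like barcodes. Some genes outside the families gave like values and others did not. Wfdc18 was at 0.753% ± 0.112, 0.434% ± 0.0195 and 0.166% ± 0.0021 of its gated level in the 3 classes. Fxyd3, another epithelial gene, was at 0.644% ± 0.0963, 0.381% ± 0.0122 and 0.142% ± 0.0024. Epcam, Tm4sf1 and Wfdc2 were at 0.554%, 0.327% and 0.430% in neutrophil-like barcodes. By contrast, Spint2 was at 11.1%, 1.39% and 11.96% in the same class order. Cd24a, which neutrophils also carry, was at 239.5%, 9.79% and 5.998%. Why these genes differed was not tested. Cldn3 was at 0.449% ± 0.121, 0.204% ± 0.0786 and 0.123% ± 0.111, and Krt8 at 1.74% ± 0.706, 0.621% ± 0.105 and 0.376% ± 0.207. Among the 8 members, Krt18 in neutrophil-like barcodes, at 8.42%, 5.46% and 5.28% in the 3 libraries, and Krt10 stood apart from the others. For Krt10 this held in all 3 classes except in neutrophil-like replicate 3 (0.690%). S100a8, a neutrophil gene, stood at 24725 ± 1756 CPM in neutrophil-like, 225 ± 52.9 in gated and 347 ± 27.8 in T-cell-like barcodes.

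**Figure D3:**
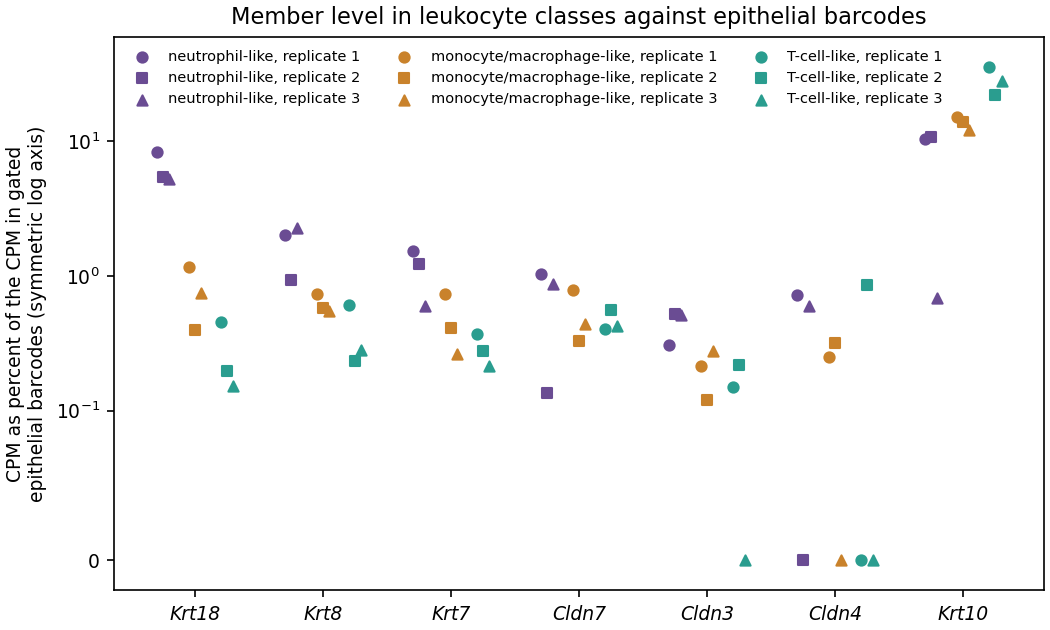
CPM of 7 members in 3 leukocyte classes as a percent of their CPM in the gated epithelial barcodes of the same library, on a symmetric log axis, with 1 point per class and library. Krt18 in neutrophil-like barcodes (5.28% to 8.42%) and Krt10, except at 0.690% in neutrophil-like replicate 3, lie above the other values, which are 2.27% or less.

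Krt18 was the member with the most UMIs in neutrophil-like barcodes. It stood at 92.1, 66.4 and 73.5 CPM there, at 12.8, 4.87 and 10.4 CPM in monocyte/macrophage-like and at 5.03, 2.39 and 2.14 CPM in T-cell-like barcodes. The neutrophil-like libraries lay above all libraries of the other classes. Among 9 members tested between neutrophil-like and T-cell-like barcodes, 4 were higher and 1 lower, beside 27.9% of 9165 genes higher, 38.8% lower and 66.6% either way. Krt18 was higher by 4.57 ± 0.30 (edgeR adjusted p = 5.60e-14), Krt8 by 2.33 ± 0.42 (edgeR adjusted p = 1.87e-05) and Krt7 by 1.74 ± 0.54 (edgeR adjusted p = 0.00649). Without replicate 2 the Krt7 call was lost (edgeR adjusted p = 0.0706, over all alternatives 0.00261 to 0.0706). Against monocyte/macrophage-like barcodes 5 members were higher and 1 lower, beside 24.5% of genes higher, 43.4% lower and 68.0% either way. With TMM scaling the genes higher and lower in that contrast moved from 2248 and 3980 to 2959 and 3150, and the median from -0.33 to -0.06, and against T-cell-like barcodes the median moved from -0.19 to -0.02. Krt18 was higher there by 3.10 ± 0.21 (edgeR adjusted p = 1.09e-13), Krt8 by 1.54 ± 0.30 (edgeR adjusted p = 4.58e-05) and Krt7 by 1.11 ± 0.39 (edgeR adjusted p = 0.0142). The Krt7 call was again lost without replicate 2 (edgeR adjusted p = 0.151, over all alternatives 0.00291 to 0.151). Cldn3 was at the threshold (1.21 ± 0.54, edgeR adjusted p = 0.0496) and lost its call in 5 of 14 alternatives, among them each that left out a library. Between monocyte/macrophage-like and T-cell-like barcodes 1 member, Krt18, was higher (1.46 ± 0.39, edgeR adjusted p = 0.00192) and 1 lower, beside 31.3% of genes higher, 26.8% lower and 58.1% either way. The Krt18 ranges overlapped between those classes.

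Read per barcode, Krt18 was uneven. A Krt18 UMI was present in 4.28% ± 0.565 of neutrophil-like barcodes (SD, n = 3; median depth 902 UMIs), in 3.65% ± 1.70 of monocyte/macrophage-like (4262) and in 0.388% ± 0.0884 of T-cell-like ones (1424). After thinning to 600 UMIs, which left out 826 shallower barcodes of which 771 were neutrophil-like, the shares were 2.99% ± 0.0782, 0.547% ± 0.266 and 0.210% ± 0.0617. Of 6179 neutrophil-like barcodes, 5913 had 0 Krt18 UMIs, 182 had 1, 39 had 2 and 45 had 3 or more, with a maximum of 12. The 45 (15, 11 and 19 by library) held 221 of the 481 Krt18 UMIs. They held 12 Krt8 UMIs, 1 of Krt7 and 0 of Epcam, Cldn3 and Cldn7, with a median of 841 UMIs in all. At least 1 UMI of S100a8 or S100a9 was present in 42 of them and in 5499 of the 5913 barcodes with 0 Krt18. The gate had moved any barcode with Epcam and enough keratin out of the leukocyte classes, so leukocyte barcodes rich in Krt18 could remain only where Epcam was absent, the sum was low or Cd3e was present. Per 1 Krt8 UMI there were 2.13, 2.38 and 1.83 Krt18 UMIs in the gated barcodes, 8.94, 13.8 and 4.26 in neutrophil-like and 3.35, 1.65 and 2.50 in monocyte/macrophage-like barcodes. The neutrophil-like ratio was above the gated one in 3 of 3 libraries.

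**Figure D4:**
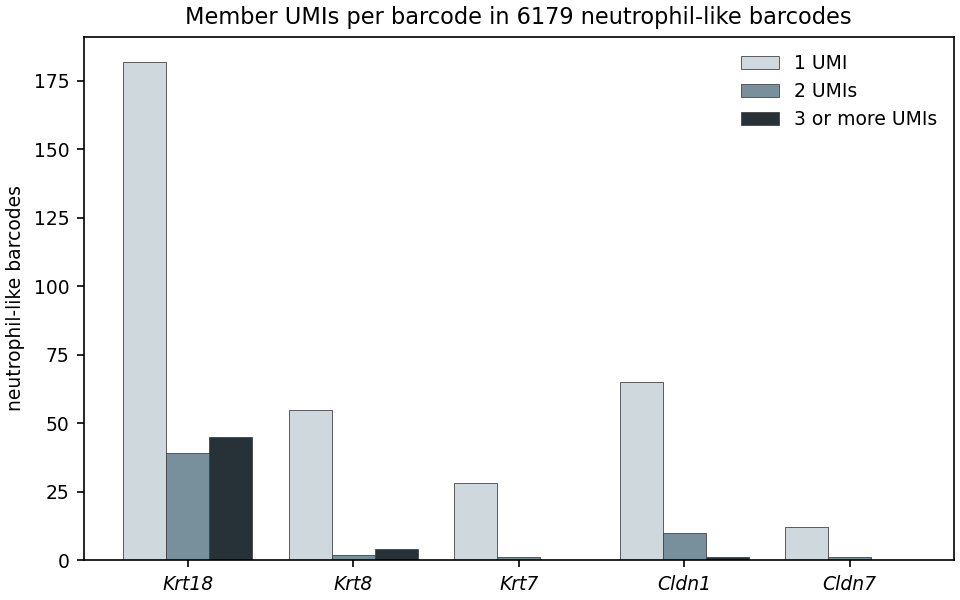
Number of neutrophil-like barcodes (y axis, linear from 0) with 1, 2 or at least 3 UMIs of Krt18, Krt8, Krt7, Cldn1 and Cldn7. For Krt18, 45 barcodes held 3 or more UMIs and for Cldn1 a single one did, while Krt7 and Cldn7 had none.

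Neutrophil-like clusters differed in Krt18. The level was highest in cluster 17, led by Gm12589, Atf5, Txnip and Naip2, at 370, 218 and 148 CPM. It was 110, 108 and 139 CPM in cluster 3, led by Siglecf, and 121, 88.6 and 43.5 CPM in cluster 4, led by the interferon-response genes Ifit3b and Cxcl10. It was 48.03, 23.2 and 37.6 CPM in cluster 0, led by Cxcl3, and 49.3, 45.4 and 24.9 CPM in cluster 1, led by Retnlg. The lowest level was that of cluster 2, led by Gbe1, from 2 UMIs. Clusters 17 and 3 lay above clusters 0, 1 and 2 in each library. These are descriptions, since the clusters were formed from the same barcodes, though without keratins and claudins. Krt86, a hair keratin, had 14 UMIs in neutrophil-like barcodes, 7 in replicate 1, 0 in replicate 2 and 7 in replicate 3, each in a barcode of its own.

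Cldn1 had another pattern. It stood at 50.6, 28.7 and 41.9 CPM in dendritic-cell-like barcodes, at 18.03, 14.0 and 11.4 CPM in neutrophil-like ones, and at 0.671, 1.03 and 0 CPM in monocyte/macrophage-like ones. A UMI was present in 14.5% ± 2.13 of dendritic-cell-like barcodes (median depth 4397.5 UMIs) and in 0.0487% ± 0.0843 of T-cell-like ones. The 3 classes did not overlap, and T-cell-like barcodes held 1 Cldn1 UMI. Within the dendritic-cell-like clusters it was 70.5, 31.7 and 52.2 CPM in the cluster led by Xcr1, 48.5, 30.6 and 46.1 in the cluster led by Cd209a and 24.7, 11.9 and 0 in the cluster led by Ccr7. The 45 keratin-free gated barcodes stood at 93.7, 46.0 and 120 CPM. Within the neutrophil-like class, 75 of 88 Cldn1 UMIs lay in cluster 0, led by Cxcl3, at 40.3, 39.7 and 28.5 CPM, and cluster 3, led by Siglecf and larger, was near 0. Neutrophil-like barcodes were higher than monocyte/macrophage-like ones by 4.23 ± 0.40 (edgeR adjusted p = 1.68e-10). Krt18 and Cldn1 thus had their highest neutrophil-like levels in different clusters.

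**Figure D5:**
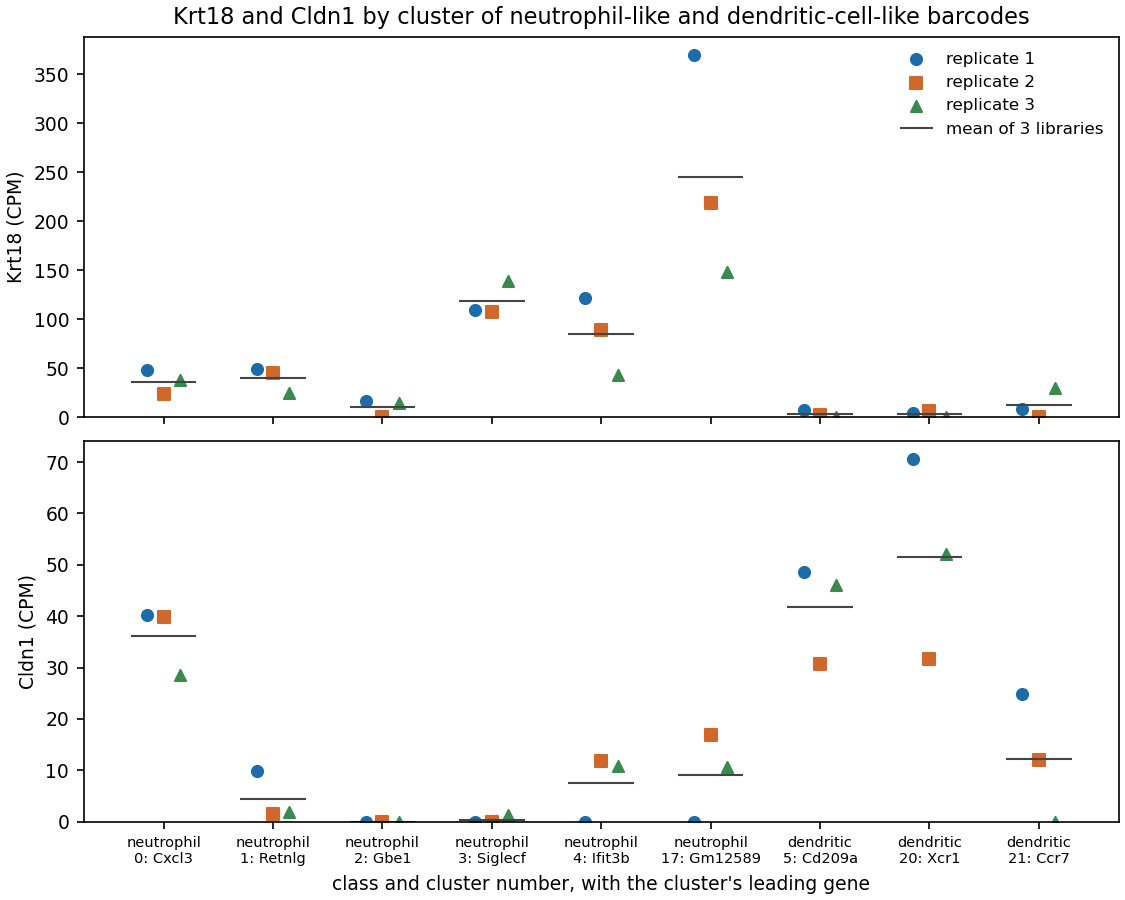
Krt18 (upper panel) and Cldn1 (lower panel) in CPM (linear axes) by cluster of neutrophil-like and dendritic-cell-like barcodes, with 1 point per library and a line at the mean of 3 libraries. Krt18 is highest in neutrophil-like cluster 17 (148 to 370 CPM), while Cldn1 is highest in neutrophil-like cluster 0 and in the dendritic-cell-like clusters led by Cd209a and Xcr1.

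Among leukocytes Krt10 was spread otherwise than Krt18. It stood at 13.2, 7.96 and 14.99 CPM in T-cell-like, 5.59, 5.02 and 6.52 in monocyte/macrophage-like and 3.86, 3.85 and 0.368 CPM in neutrophil-like barcodes, with no overlap between the 3 classes. Plasmacytoid-dendritic-cell-like barcodes held 8 Krt10 UMIs, at 0, 9.61 and 18.1 CPM, and NK-cell-like barcodes 1. As a percent of the gated level, Krt10 was at 28.7% ± 6.85 in T-cell-like, 13.8% ± 1.47 in monocyte/macrophage-like and 7.30% ± 5.72 in neutrophil-like barcodes. Neutrophil-like barcodes were lower than T-cell-like ones by -2.25 ± 0.46 (log2; edgeR adjusted p = 8.78e-05) and than monocyte/macrophage-like ones by -1.23 ± 0.46 (edgeR adjusted p = 0.0199). The second call was lost with TMM and with DESeq2 (adjusted p of 0.0715 and 0.190), and without replicate 3, which had 1 neutrophil-like Krt10 UMI (-0.44, edgeR adjusted p = 0.403, over all alternatives 0.00483 to 0.403). Monocyte/macrophage-like barcodes were lower than T-cell-like ones by -1.02 ± 0.33 (edgeR adjusted p = 0.00965), a call lost with DESeq2 and without replicate 1 (-0.92, edgeR adjusted p = 0.0747, over all alternatives 0.00118 to 0.0944). Within T-cell-like barcodes Krt10 was 14.9, 14.8 and 26.8 CPM in the cluster led by Il17a and Trdc and 5.09, 3.06 and 6.69 CPM in the cluster led by Ccl5 and Gzmk. It was 35.9, 20.5 and 0 CPM in the cluster led by Tnfrsf4, higher than the Il17a cluster in replicates 1 and 2 and lower in replicate 3. No T-cell-like barcode held more than 1 Krt10 UMI.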

How the data were processed

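UMI counts per gene and barcode (28692 genes) were deposited by the authors as unnormalised whole numbers. The submitters' processing notes name mm10, Cell Ranger and Seurat, with no versions, and the deposited values are the authors' counts before any scaling. Every deposited barcode held at least 500 UMIs, and totals were 9846404, 15259236 and 9445914 UMIs. The members and lists were chosen with earlier results of these data known.

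Of 14336 barcodes 14226 were kept: 22 had fewer than 200 genes and 107 more than 10% of UMIs from mitochondrial genes. Scrublet called 2 doublets (0.0141%) and so has not worked; no barcode was dropped as a doublet, and an alternative left out the 560 with the highest scores. Of the barcode sequences, 91 occurred in more than 1 library, 5 of them on gated barcodes. Counts were scaled to 10000, and 2000 variable genes without the members, Epcam, Cd3e and Icam1, 30 components, 15 neighbours and Leiden resolution 1 were used (scanpy 1.11.5, igraph 0.11.9). A cluster was named from at least 3 markers; 1 cluster of 119 barcodes stayed unnamed, and the B-or-plasma-cell-like class (under 20 barcodes in a library) was not tested. Monocyte-like and macrophage-like clusters were joined.

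UMI sums per library and class went into 1 joint fit of edgeR's quasi-likelihood test (edgeR 4.0.16, R 4.3.3) with library totals as scale, filterByExpr, Benjamini-Hochberg adjustment at 0.05 and library as a block, since the sums of a replicate come from the same library. On simulated sums for the contrast with neutrophil-like barcodes (8618 genes), the fit recovered 100% of changes of 2 (log2), 70.2% of changes of -1 and 82.0% of changes of 1. Only genes above a minimum expected epithelial count were changed, with a common dispersion of 0.0118 and no library effect. The recovery therefore does not speak for members with few UMIs. DESeq2 1.42.0 was an alternative. Depth limits low members: the gated barcodes held 2612987 UMIs, so 3 counts equal 1.15 CPM. Named were all members with at least 10 UMIs in the gated barcodes or in 1 leukocyte class, and up to 4 genes of each other list with the highest gated CPM. List genes beyond these, and Wfdc18, Fxyd3, Spint2 and S100a8 as measures of carried RNA, were named after their values were seen. A gene that this rule names is not reported here.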

Additional observations from a re-analysis of the deposited data

Results flagged for a closer look

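Members were also counted in barcodes that no comparison used. The epithelial-like cluster held 92 barcodes outside the gate, of which 60 had 0 Epcam UMIs and 10 had Cd3e. Their UMIs were 490 for Krt18, 185 for Krt7, 177 for Krt8, 118 for Cldn3, 63 for Cldn7, 18 for Krt10, 12 for Cldn4, 9 for Krt15, 5 for Cldn10, 4 for Cldn12 and 4 for Krt27, each above the 3 counts that a value of 0 allows. In 20 of the 92 barcodes Krt8 and Krt18 summed to at least 5. The 7 fibroblast markers summed to 4655 to 15685 CPM in these barcodes, and 11 of them held at least 5 fibroblast-marker UMIs, so the cluster was mixed. Cldn5, the claudin of endothelium, had 7 UMIs in 2 barcodes, both with at least 5 endothelial-marker UMIs, and 0 in the gated set. The unnamed cluster, with T-cell and neutrophil transcripts, held 7 Krt18 UMIs in 4 barcodes. The B-or-plasma-cell-like cluster held 5 Cldn7 UMIs in 2 barcodes, 4 of them in a single one. What these signals come from was not tested.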

How the results depend on the processing

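Over the alternatives, 245 values of counts and levels of members were labelled the same and 25 moved. A count of members was judged by its ratio to the main count and not by a spread. Of the members' log2 differences 441 kept their direction and call, 20 lost the call and 1 reversed. Gates with Ptprc at 0, with a sum of at least 10, or with Krt8 or Krt18 at least 1 (the last added after seeing the data) gave Cldn3 means of 454, 470 and 455 CPM and Cldn7 means of 385, 383 and 378 CPM; the second and last gave Krt18 means of 1458 and 1389 CPM. Under each of these gates, and with TMM, 1 member (Cldn1) was lower against neutrophil-like barcodes. With Krt8 or Krt18 at least 1 the Cldn1 difference from monocyte/macrophage-like barcodes reversed to -0.58. Counting leukocytes only where the gate sum was at most 1, which by construction removes barcodes with more keratin, took the neutrophil-like percent of gated CPM to 2.28 for Krt18 and 1.02 for Krt8, and at least 500 genes with at most 5% mitochondrial UMIs took that of Cldn4 to 0.850. With no filter on low counts, 16, 17 and 17 members were higher against neutrophil-like, monocyte/macrophage-like and T-cell-like barcodes. From monocyte/macrophage-like to neutrophil-like barcodes 0 members were lower with TMM and 0 with DESeq2, and leaving out a library gave 3 to 4 higher and 0 to 1 lower. Between monocyte/macrophage-like and T-cell-like barcodes 0 were lower with DESeq2 (2 members in either direction, among them the higher Krt18, had an unadjusted DESeq2 p under 0.05). Leaving out a library gave 1 to 2 higher and 0 to 1 lower. The causes were not tested. Without library as a block (no replicate block), the members called were 6, 7 and 7 higher in the epithelial contrasts, and all 6 contrasts kept their counts of members. The test of Krt5 or Krt14 detection and its alternatives were not run, with 1 barcode on a side. Depth limits the low members: 1 UMI decides a library for most claudins in leukocytes.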
